A study of Mus musculus with 563 samples.

Results

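The genes described are 6 aldehyde dehydrogenases (Aldh1a1, Aldh1a7, Aldh2, Aldh1b1, Aldh3a2 and Aldh9a1), 3 retinoid receptors (Rara, Rarg and Rxra) and the retinoic acid hydroxylase Cyp26b1. They were taken by name, which gives 10 of the 46041 nuclear gene entries of the count tables. Of the 10, 9 passed a level filter of at least 10 CPM (reads per 1000000 reads in nuclear genes) averaged over the 8 group and table sums, together with reads in 10% or more of the kept cells, as did 10721 entries in all, and Aldh1a7 did not. Aldehyde dehydrogenases oxidise reactive aldehydes to acids, and some of them turn retinal, made from vitamin A, into retinoic acid. Retinoic acid binds receptors of the RAR family, which act on DNA together with RXR partners, and CYP26 enzymes break it down again. In the bone marrow, haematopoietic stem cells (HSCs) have long been enriched by dyes that aldehyde dehydrogenase activity makes fluorescent, and both aldehyde clearance and retinoid signalling are known to bear on how these cells are maintained.

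The study sorted single HSCs from bone marrow of Gfp-Lc3 mice into plates and sequenced each with a modified Smart-seq2 protocol. All groups carry this transgene, a fusion of green fluorescent protein to LC3, a protein that binds autophagosome membranes, and all were taken at steady state. The groups are old HSCs labelled LO, old HSCs labelled MID, old HSCs labelled HI, and young HSCs as the control. The series design says that the GFP-LC3 level was recorded at sorting, and the series title speaks of autophagy in old HSCs, but no label says what LO, MID and HI rank. The age in months, the strain beyond the transgene, the promoter of the transgene and the number of mice were not given in the sources used here.

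The cells came in 2 tables that each hold all 4 groups. Of 563 cells, 533 were kept, with 65 and 71 LO, 68 and 66 MID, 68 and 61 HI, and 63 and 71 young cells in the first and the second table. Median depth in nuclear genes was 257238 reads for LO, 254723 for MID, 340529 for HI and 271443 for young cells. At least 5 of 10 HSC markers were read in 100% of LO, 98.5% of MID, 97.7% of HI and 95.5% of young cells. Of the marker lists of other cell types, 1 of 8 B cell, 2 of 8 T and NK cell, 2 of 10 neutrophil and monocyte, 3 of 8 dendritic cell, 3 of 8 stroma and endothelium and 3 of 10 erythroid genes reached 10 CPM. Under 1 CPM were 6 of 8 B cell, 6 of 8 T and NK cell and 6 of 10 neutrophil and monocyte genes. The same held for 4 of 8 dendritic cell, 4 of 8 stroma and endothelium and 5 of 10 erythroid genes. The dendritic cell list still summed to 343 to 374 CPM in old groups and to 314 and 346 CPM in young cells. With the megakaryocyte list left aside, 47.1% of LO, 43.3% of MID, 54.3% of HI and 36.6% of young cells held 3 or more markers of 1 other blood cell type. The erythroid list summed to 1231 to 2030 CPM over the old groups and to 1652 and 1663 CPM in young cells. The young cells of the second table stand apart by reads of sex-linked genes: all 71 had at least 20 Xist reads and 0 had 20 reads of Y-linked genes, whereas 57 of 63 young cells of the first table and most old cells of both tables had 20 or more Y-linked reads. Age and sex therefore cannot be told apart in the second table. Since the animals are not named in any label, a group is treated as 1 sample, no test was possible, and no p-value is given. The 2 tables serve as repeats of unknown independence. Intervals cover counting error only, and reads without molecular identifiers are not independent molecules.

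Aldh1a1 and Aldh1a7 lie next to each other and are close copies, so their sequences are shown first, to show what a read has to tell them apart by. Aldh1a1 (ENSMUSG00000053279) lies on the plus strand of chromosome 19, from 20492715 to 20643465 in GRCm38, and Aldh1a7 (ENSMUSG00000024747) lies beyond it on the minus strand, from 20692953 to 20727562. In the GENCODE M21 transcripts their longest reading frames are 1506 bases each, and 1380 of these bases are identical (91.6%). The longest identical run is 100 bases. Of all words of 50 bases in the Aldh1a7 transcript, 7.49% also occur in an Aldh1a1 transcript. The stretch from base 694 to base 813 of the frame, counted from the A of the first ATG, holds both a run with 8 differing bases, given in capitals, and a run with none.
Aldh1a1: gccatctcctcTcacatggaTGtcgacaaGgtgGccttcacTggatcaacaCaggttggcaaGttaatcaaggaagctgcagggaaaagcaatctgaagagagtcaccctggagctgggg
Aldh1a7: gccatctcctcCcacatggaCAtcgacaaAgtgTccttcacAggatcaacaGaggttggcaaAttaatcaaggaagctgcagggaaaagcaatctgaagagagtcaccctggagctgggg

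The likeness extends upstream of the starts. RefSeq promoters (GRCm38.p6) matched 9 of the 10 genes, with 15 starts in all. The 250 bases before the Aldh1a1 start at 20601968 (chr19:20601718-20601967, plus strand) and before the Aldh1a7 start (chr19:20727557-20727806, minus strand) had 160 identical bases among 175 aligned (91.4%). Against the other Aldh1a1 start, at 20492583, 63.3% of 215 aligned bases were identical. The pair is printed because the levels of these neighbours differ so widely despite the likeness. Capitals mark TATAAA and CCAAT, searched on both strands along with GGGCGG and AGGTCA, a core site that nuclear receptors bind.
Aldh1a1: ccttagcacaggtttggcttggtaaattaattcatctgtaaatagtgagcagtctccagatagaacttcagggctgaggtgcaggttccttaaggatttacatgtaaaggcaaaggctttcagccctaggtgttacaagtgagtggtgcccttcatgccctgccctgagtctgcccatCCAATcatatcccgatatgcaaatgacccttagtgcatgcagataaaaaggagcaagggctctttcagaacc
Aldh1a7: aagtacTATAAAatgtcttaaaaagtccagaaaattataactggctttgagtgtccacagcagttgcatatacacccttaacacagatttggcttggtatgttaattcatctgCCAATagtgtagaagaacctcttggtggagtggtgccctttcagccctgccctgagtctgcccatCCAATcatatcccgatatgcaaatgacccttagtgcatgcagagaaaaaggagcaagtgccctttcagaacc
CCAAT is present once in the first sequence and at 2 places in the second, and 33.8% of 32817 promoters of the same length hold it. TATAAA is found in the second only, and in 12.4% of promoters. Neither GGGCGG (32.7% of promoters) nor AGGTCA (14.03%) is in these windows.

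Aldh1a1, a cytosolic enzyme that oxidises retinal and lipid-derived aldehydes, was high in old HSCs of every sort and low in young HSCs. It was at 459 and 455 CPM in LO cells, 381 and 446 CPM in MID cells, 377 and 489.5 CPM in HI cells, and 64.4 and 96.3 CPM in young cells, in the first and the second table. Every old value lay above both young values. Among the old groups both LO values lay above both MID values, and the HI values spanned the range of the others. On the log2(CPM + 1) scale the mean of the 3 old groups was 2.44 above young, with 2.63 in the first table and 2.25 in the second, a 5.43-fold difference. LO differed from young by 2.52, MID by 2.37 and HI by 2.43. The 1257 and 2145 reads in young cells leave counting intervals of 60.9 to 68.02 and 92.2 to 100.4 CPM. These leave out the spread between cells and between tables, and each young value lies outside the interval of the other.

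A size rule stood in for a test. It asks for a mean log2 difference of at least 1, at least 0.58 with the same sign in each table, at least 20 CPM and a read in at least 20% of cells in the higher group, and no cell with over 20% of that group's reads. Aldh1a1 alone among the 9 genes met it for old against young, as a higher gene, and none met it as a lower gene. Of the 10721 genes past the level filter, 163 met it as higher (1.52%) and 41 as lower (0.382%). Aldh1a1 also met the rule as a higher gene in LO, MID and HI each taken against young, and no other of the 9 genes did in either direction. Of all genes, 1.4% were higher and 0.578% lower in LO, 1.03% higher and 0.42% lower in MID, and 1.24% higher and 0.756% lower in HI. The gene was listed with its earlier result known, so its call describes these cells and is no independent support.

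**Figure D1:**
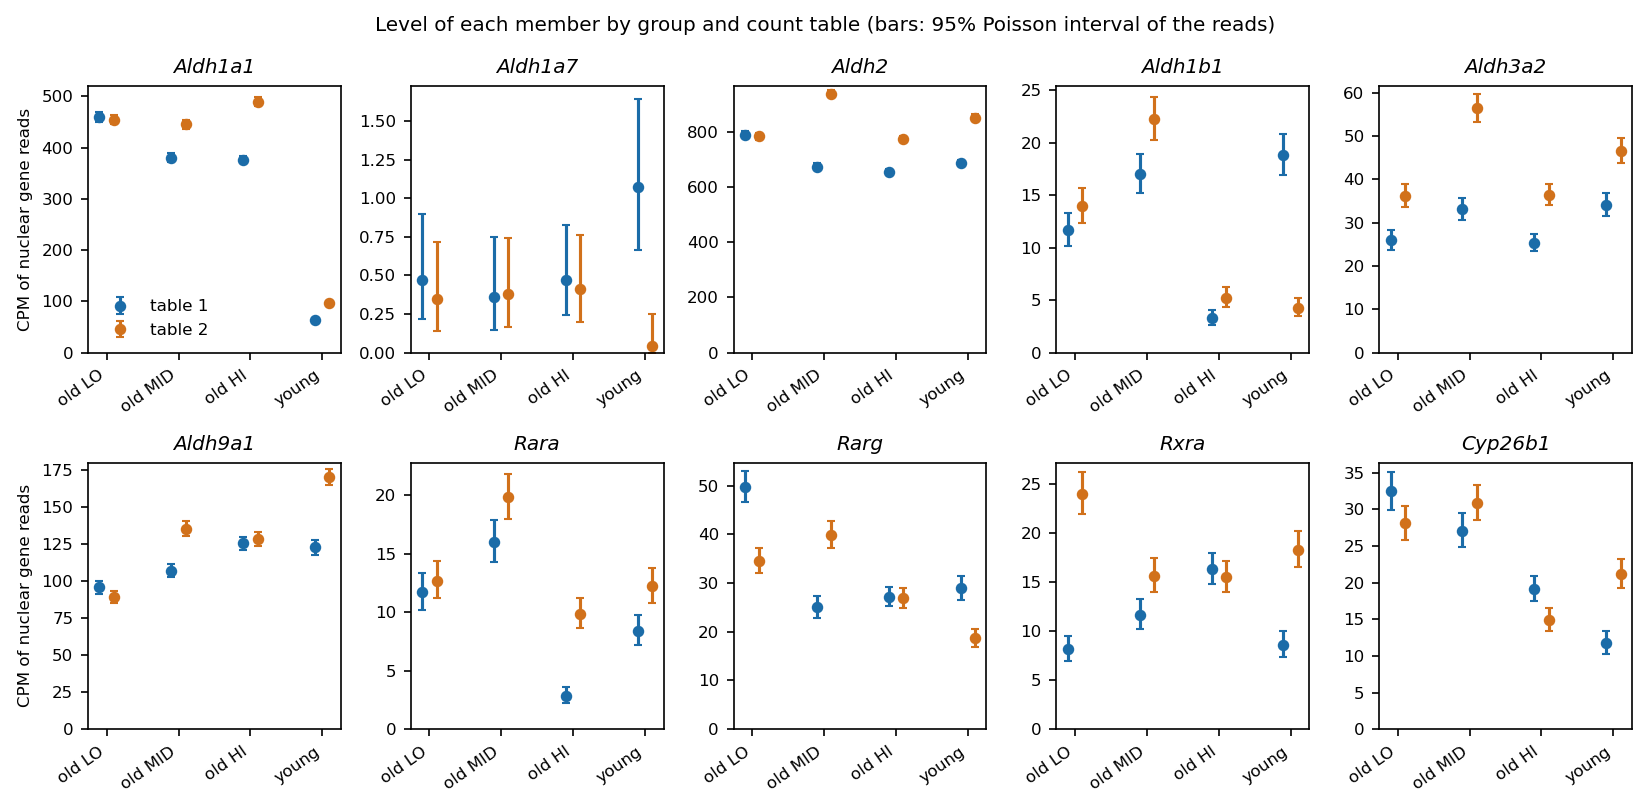
Level of each of the 10 genes in CPM of nuclear gene reads (y axis, linear, own scale per panel) in old LO, old MID, old HI and young HSCs (x axis), with 1 point for each of the 2 count tables and bars for the 95% Poisson interval of the summed reads. Aldh1a1 sits at 377 to 489.5 CPM in old groups and at 64.4 and 96.3 CPM in young cells, while Aldh2 runs from 654 to 937 CPM with old and young interleaved.

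Aldh1a1 was read in nearly all old cells. With each cell thinned to 100000 nuclear reads, Aldh1a1 had a read in 99.2% of LO (exact 95% interval 95.5% to 99.98%), 97.6% of MID (93.3% to 99.5%), 98.4% of HI (94.3% to 99.8%) and 50% of young cells (41.04% to 58.96%). Unthinned shares were 96.3% of LO, 97.01% of MID, 98.4% of HI and 56.7% of young cells. The young share itself differed between tables, with 32.2% (20.6% to 45.6%) in the first and 65.2% (52.8% to 76.3%) in the second, the table whose young cells had Xist reads. The median thinned cell held 42 Aldh1a1 reads among LO, 43 among MID, 36 among HI and 0.5 among young cells.

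Young cells were not a uniform low population. At least 10 thinned reads were found in 90.2% of LO, 88.98% of MID, 88.6% of HI and 23.4% of young cells. Of 373 thinned old cells, 6 had no Aldh1a1 read (1.61%), against 50% of young cells. Of the young cells, 16 (12.5%) lay above the first quartile of old cells, 19 reads, and 1 lay above the old median of 41 reads. That single cell belongs to the first table, where the young cell with most reads held 22.9% of that table's young Aldh1a1 reads.

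**Figure D2:**
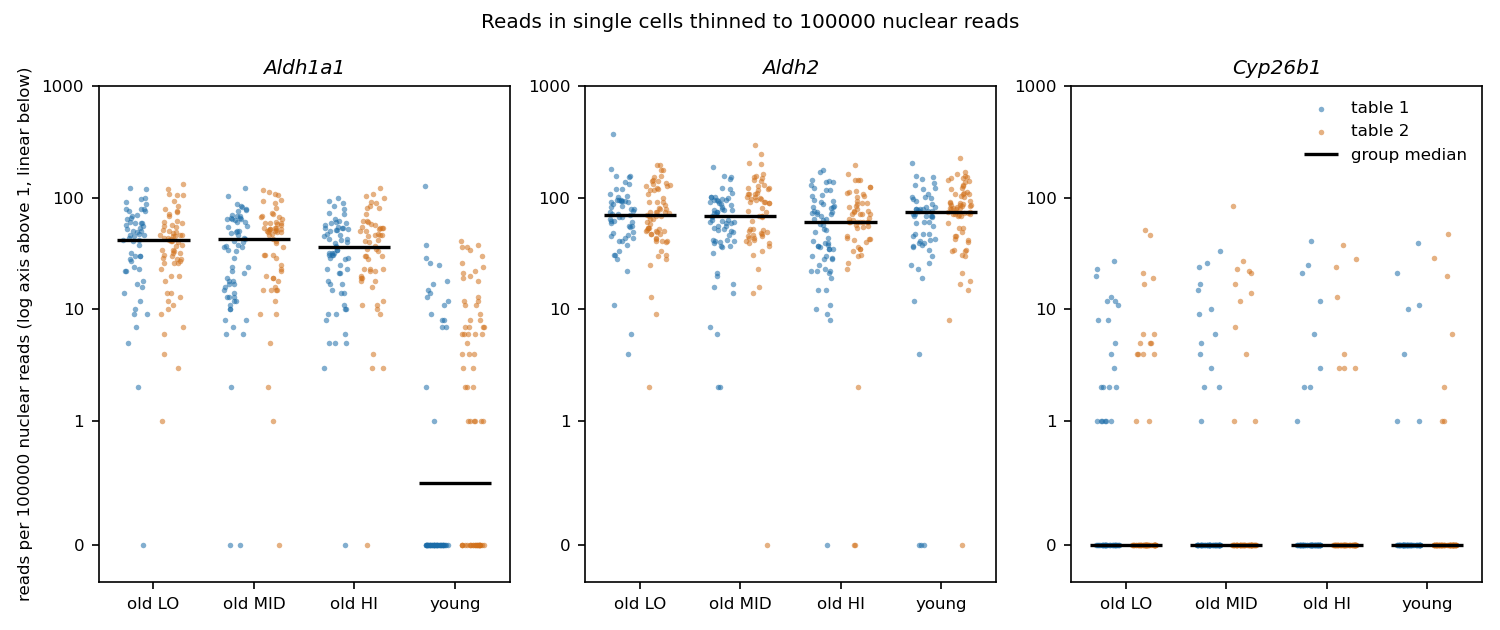
Reads of Aldh1a1, Aldh2 and Cyp26b1 in single cells thinned to 100000 nuclear reads (y axis, logarithmic above 1 and linear below) for old LO, old MID, old HI and young HSCs, with 1 point per cell, coloured by table, and a black line at the group median. For Aldh1a1 the old medians are 42, 43 and 36 reads and the young median is 0.5, with 16 young cells above the old first quartile; for Aldh2 all 4 medians lie between 60 and 74 reads.

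Other properties of the cells moved with age too. At least 3 of 8 multipotent progenitor markers were read in 22.8% of LO, 27.6% of MID, 37.2% of HI and 50.7% of young cells, and the summed level of that list was 433 to 616 CPM in old groups and 728 and 825 CPM in young cells, with 4 of 8 genes at 10 CPM or more and Cd48 and Il7r under 1 CPM. Without those cells Aldh1a1 was at 436 CPM in old and 105.03 CPM in young cells, a difference of 2.06 (4.17-fold). The megakaryocyte and platelet list, with 8 of 10 genes at 10 CPM or more and Gp6 under 1 CPM, summed to 1656 to 2190 CPM in old groups and 1186 and 1207 CPM in young cells; its part in the result was not tested. The neutrophil and monocyte list summed to 824 to 920 CPM in old groups and 608 and 645 CPM in young cells, with 2 of 10 genes at 10 CPM or more. Without cells that held 3 or more markers of another blood cell type, the megakaryocyte list left aside, the Aldh1a1 difference was 2.38. Within the first table, with only cells that had 20 Y-linked reads, it was 2.60. These cell subsets were partly chosen after the data had been seen.

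Between the old sorts Aldh1a1 had no difference that met the size rule. HI differed from LO by -0.09, with -0.28 in the first table and 0.11 in the second, so the tables had opposite signs, as they did for 38% of all genes. Cells with 8 or more G2 and M phase genes read made up 31.01% of HI, 7.46% of MID and 4.41% of LO cells, against 13.4% of young cells. Without them the old minus young difference of Aldh1a1 was 2.55.

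Aldh1a7 was close to absent. It had 9 and 7 reads in LO cells, 7 and 8 reads in MID cells, 12 and 10 reads in HI cells, and 21 and 1 reads in young cells, which puts it at 0.35 to 0.47 CPM in old groups and at 1.08 and 0.04 CPM in young cells. The higher young value came from 1 cell, which held 90.5% of the 21 reads. In old cells 53 reads were spread over 37 of 399 cells, and after thinning 3.22% of old and 2.34% of young cells had a read. How reads that match both copies were assigned, and whether strand was used, was not given in the sources used here, so the split between the neighbours is uncertain for the reads in their identical runs. With the reads of both added up, the old minus young difference was 2.44, as for Aldh1a1 alone. Reads of C730002L08Rik and Gm6684, which overlap Aldh1a1 on the opposite strand, could not be told from its own without strand, and the same holds for Aldh2 with Gm42879; Rara overlaps Gm22061 on its own strand.

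Aldh2 (ENSMUSG00000029455; chromosome 5, 121566027 to 121593824, minus strand), the mitochondrial enzyme that clears acetaldehyde, was the most abundant of the 10 genes and had like levels in old and young cells. It was at 789 and 784 CPM in LO, 674 and 937 CPM in MID, 654 and 774 CPM in HI, and 687 and 851 CPM in young cells. Both young values lay within the range of the old groups, while both HI values lay below both LO values. Old differed from young by -0.00 on the log2 scale (0.03 and -0.04 in the tables). A read was found in 97.6% to 100% of thinned cells of the old groups and in 96.9% of thinned young cells. Per kilobase of exon, averaged over the 8 sums of 4 groups and 2 tables, Aldh2 was at 149.9 CPM per kb and Aldh1a1 at 70.1 CPM per kb, the 98.3rd and the 94.3rd percentile of genes past the level filter.

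Aldh9a1 (ENSMUSG00000026687; chromosome 1, 167349991 to 167368532, plus strand), which makes a precursor of carnitine, came next per length at 35.96 CPM per kb. It was at 95.7 and 89.3 CPM in LO, 106.9 and 135.2 CPM in MID, 125.4 and 128.2 CPM in HI, and 122.6 and 169.9 CPM in young cells. Young cells were the highest in the second table, and HI cells narrowly so in the first. Old minus young was -0.36 (-0.17 and -0.55), and 0.04 without cells with 3 or more progenitor markers. HI minus LO was 0.45 (0.39 and 0.52), but 0.00 when every cell entered the sums with the same thinned depth. After thinning 56.1% of LO, 57.5% of MID, 70.7% of HI and 64.8% of young cells had a read. The intervals overlap, but they count cells within 1 sample a group, so whether these shares differ was not tested.

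Aldh3a2 (ENSMUSG00000010025; chromosome 11, 61223417 to 61267464, minus strand), the fatty aldehyde dehydrogenase of the endoplasmic reticulum, ran from 25.3 to 56.4 CPM in the old groups and was at 34.2 and 46.5 CPM in young cells, a difference of -0.21 (-0.28 and -0.14). Young cells lay inside the range of the old groups in the second table and just above it in the first. Aldh1b1 (ENSMUSG00000035561; chromosome 4, 45799022 to 45804604, plus strand), a mitochondrial enzyme close in sequence to ALDH2, was read in only 10.9% of kept cells. It was at 11.6 and 13.9 CPM in LO, 17.02 and 22.2 CPM in MID, 3.27 and 5.25 CPM in HI, and 18.8 and 4.26 CPM in young cells. The 5 cells with most reads held 95.1% to 100% of its reads in each group and table, so its levels rest on a handful of cells. HI minus LO was -1.41 (-1.57 and -1.26), short of the size rule on level, share of cells and reads in the top cell. Over 14 alternatives it ran from -3.08 to -0.68, while 8.13% of HI and 7.32% of LO cells had a read after thinning.

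The receptor genes were low and had no difference that met the size rule. Rarg (ENSMUSG00000001288; chromosome 15, 102234938 to 102257517, minus strand), a receptor known to keep HSCs from differentiating in mice, was the most abundant per length at 7.36 CPM per kb, followed by Rxra at 2.71 and Rara at 2.68 CPM per kb. Rarg was at 49.7 and 34.5 CPM in LO, 25.1 and 39.9 CPM in MID, 27.2 and 26.8 CPM in HI, and 28.9 and 18.7 CPM in young cells. All old values lay above young in the second table, and only LO did in the first. Old minus young was 0.48 (0.16 and 0.80), and HI minus LO was -0.60 (-0.85 and -0.35). A Rarg read was found in 47.2% of LO, 44.9% of MID, 41.5% of HI and 39.8% of young cells after thinning. These intervals overlap as well, and a difference between the shares was not tested.

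Rara (ENSMUSG00000037992; chromosome 11, 98927818 to 98974942, plus strand), the receptor of acute promyelocytic leukaemia fusions, was at 11.7 and 12.7 CPM in LO, 15.98 and 19.8 CPM in MID, 2.88 and 9.84 CPM in HI, and 8.40 and 12.2 CPM in young cells. HI was the lowest group in each table. HI minus LO was -1.02 (-1.71 and -0.34), under the size rule in the second table and in level, and it ran from -1.73 to -0.34 over 14 alternatives. A single LO cell held 50.7% of the LO reads of the first table. Old minus young was 0.07, with 0.00 and 0.14 in the tables. Rxra (ENSMUSG00000015846; chromosome 2, 27676440 to 27762957, plus strand), the shared dimer partner, was at 8.18 and 24.04 CPM in LO, 11.7 and 15.7 CPM in MID, 16.4 and 15.5 CPM in HI, and 8.60 and 18.4 CPM in young cells. The LO values alone span more than all other groups together, and old minus young was 0.19 (0.40 and -0.02). HI minus LO was 0.16, with 0.92 in the first table and -0.60 in the second. A read was found in 25.2% to 26.02% of thinned old cells by group and in 22.7% of young cells.

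Cyp26b1 (ENSMUSG00000063415; chromosome 6, 84571414 to 84593908, minus strand), which inactivates retinoic acid, had the second largest old minus young difference of the 9 genes, 0.60, and it was uneven between tables (1.06 and 0.14). It was at 32.5 and 28.1 CPM in LO, 27.1 and 30.9 CPM in MID, 19.1 and 14.9 CPM in HI, and 11.7 and 21.2 CPM in young cells. LO and MID lay above young in both tables, and HI lay above young only in the first. The young levels rest on few cells, as a single cell held 48.03% and 49.6% of young reads in the first and the second table, against 12.8% and 37.8% of LO reads. Over 14 alternatives the old minus young difference ran from -0.11 to 1.06. It moved by more than the spread between tables in 1 case, without cells that held 3 or more markers of another blood cell type (-0.11). It was 0.97 without cells with 8 or more G2 and M phase genes, 0.71 with thinned cells and 0.42 without cells with progenitor markers. In another setting the cell with most Cyp26b1 reads was left out of each group in each table. The level was then 18.8 CPM in old and 8.68 CPM in young cells, beside 25.4 and 16.5 CPM with all kept cells. The fold of old over young was larger in this setting than with all kept cells. After thinning a read was found in 30.9% of LO (22.9% to 39.9%), 20.5% of MID (13.8% to 28.5%), 13.8% of HI (8.26% to 21.2%) and 10.9% of young cells (6.11% to 17.7%).

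The order LO, MID, HI, young for that share was the same in both tables: 38.6%, 21.5%, 13.8% and 11.9% in the first, and 24.2%, 19.4%, 13.8% and 10.1% in the second. With 1 sample a group, whether neighbours in this order differ could not be tested. HI minus LO in level was -0.81 (-0.74 and -0.88), which fell short of the mean required by the size rule. It also failed the limit on the top cell, which held 37.8% of LO reads in the second table. The difference was -0.43 without cycling cells, -0.31 without cells with progenitor markers, and -0.23 without cells with other-type markers. In that last setting the tables had opposite signs, with LO at 28.2 and 27.03 CPM and HI at 33.3 and 16.4 CPM. HI minus LO moved by more than the spread between tables in 7 of 14 alternatives. Without thinning the shares were 38.97% of LO, 24.6% of MID, 20.9% of HI and 18.7% of young cells.

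**Figure D3:**
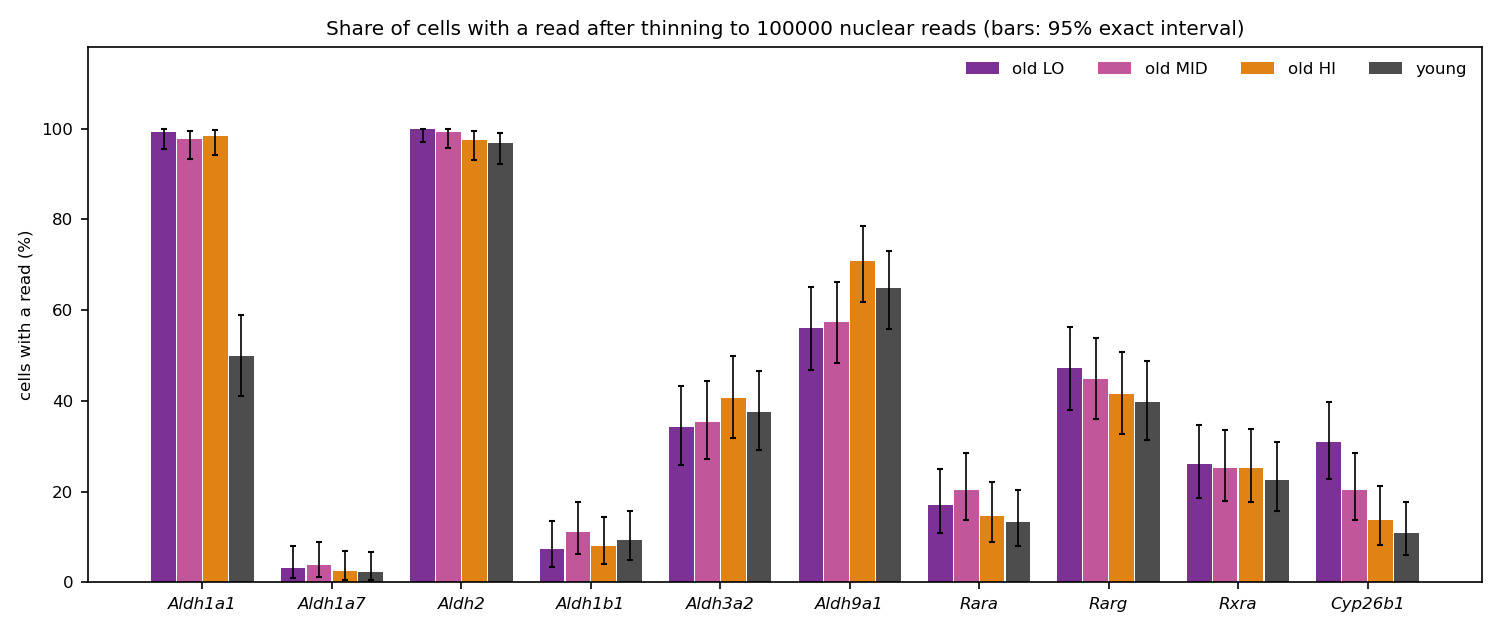
Share of cells with a read of each gene after thinning to 100000 nuclear reads (y axis, %), for old LO, old MID, old HI and young HSCs from left to right, with exact 95% intervals. Aldh1a1 stands at 97.6% to 99.2% in old groups and at 50% in young cells, and Cyp26b1 steps down through 30.9%, 20.5%, 13.8% and 10.9%.

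Over the 9 genes together, the median old minus young difference was 0.15, beside -0.00 for all genes tested, and 6 of 9 were positive. In 3 of the 9 the tables had opposite signs, as in 41.5% of all genes. For HI minus LO the median was -0.14, beside 0.02 for all genes, and 2 of 9 were positive. None of the 9 met the size rule in that contrast, in which 1.66% of all genes were higher and 0.438% lower. Opposite signs of at least 0.58 in size in each table were found in 1 of 9 for either contrast, Aldh1b1 for age and Rxra for HI minus LO, and in 1.52% and 2.12% of all genes. Apart from Aldh1a1, the old minus young differences ran from -0.36 (Aldh9a1) to 0.60 (Cyp26b1).

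**Figure D4:**
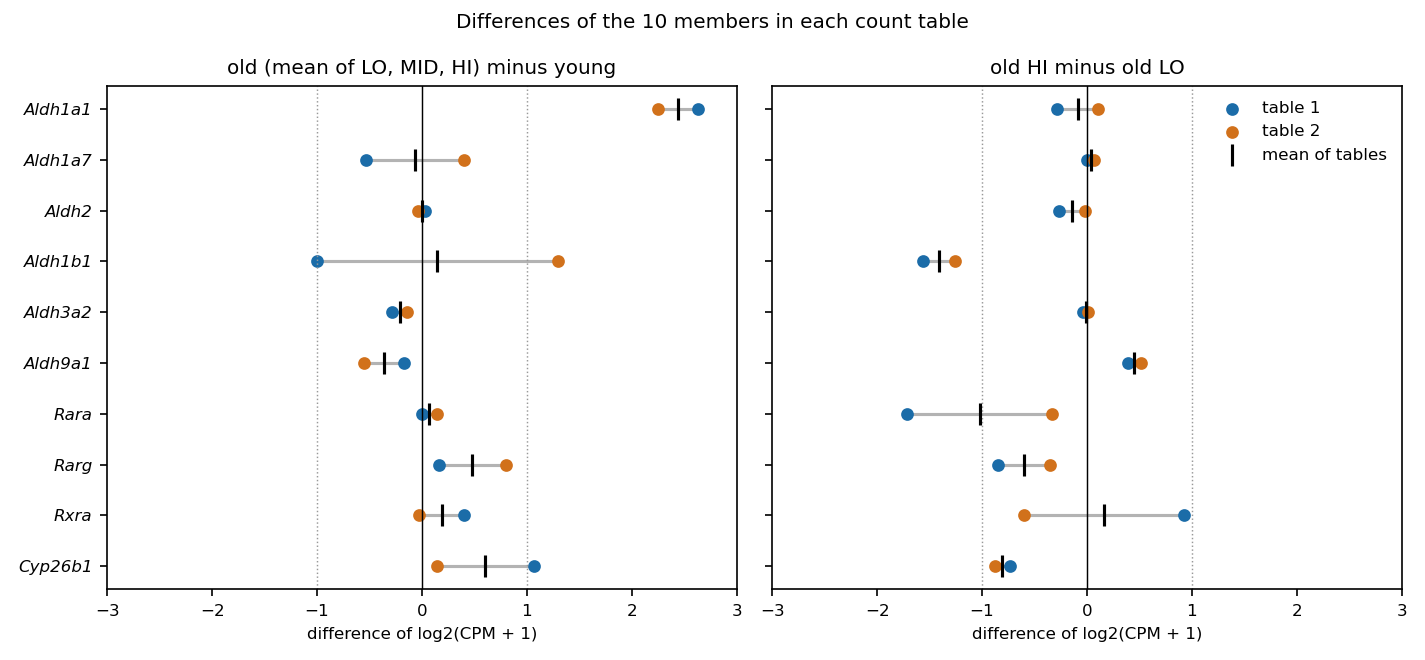
Difference of log2(CPM + 1) for each of the 10 genes, old (mean of LO, MID and HI) minus young on the left and old HI minus old LO on the right, with 1 point per table, a black bar at their mean and dotted lines at -1 and 1. Aldh1a1 stands at 2.25 and 2.63 for age and near 0 between HI and LO, and Aldh1b1 for age and Rxra for HI minus LO have tables far apart on opposite sides of 0.

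Across the 533 kept cells, with group and table means taken out, the genes hardly moved together. Over 36 pairs of the 9 genes Pearson's r of log2(CPM + 1) ran from -0.09 to 0.12, the highest being Aldh1a1 with Aldh2. Spearman's r ran from -0.18 (Aldh1b1 with Rxra) to 0.21 (Aldh1b1 with Rara), and was 0.11 for Aldh1a1 with Aldh2. Depth differed between cells, and which cells share an animal is not known. Pearson's r of a gene with the log2 nuclear reads of the cell ran from -0.02 (Rxra) to 0.29 (Aldh2). It was 0.26 for Aldh1a1. In counts this sparse the values for pairs are no finding.

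Of the lists read for the wider pathway, 5 are described here. No gene in them met the size rule as lower in old cells (0.382% of all genes did). Of 14 other aldehyde dehydrogenases, 6 passed the level filter and 0 met the size rule for old against young; the median was 0.05, with Aldh4a1, which acts in proline breakdown, highest at 0.58 and Aldh6a1, which acts in valine breakdown, lowest at -0.17. Aldh1a2 and Aldh1a3, the other retinal dehydrogenases, did not pass the filter. Of 20 genes of retinol oxidation, reduction and storage, 11 passed, and 1 was higher, beside 1.52% of all genes, namely Dhrs3, which turns retinal back into retinol. Dhrs3 was at 63.1 and 43.1 CPM in LO, 61.4 and 73.1 CPM in MID, 70.3 and 45.3 CPM in HI, and 25.3 and 13.01 CPM in young cells. All old values exceeded both young values, with a difference of 1.62 (1.32 and 1.93). The lowest of that list was Rdh12, another retinal reductase, at -1.24 (-1.62 and -0.86), short of the rule, and the list median was -0.04.

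Of 14 genes known to be induced by retinoic acid, 7 passed the filter, Cyp26b1 among them. Dhrs3 and Tgm2, 2 of these, were higher, beside the same 1.52% of all genes. The list median was 0.60 (0.47 and 0.14 in the tables). Both the 0.60 and the 0.14 are the values of Cyp26b1 itself, given above, so they are no separate result. Tgm2, tissue transglutaminase, was at 856 and 841 CPM in LO, 701 and 711 CPM in MID, 632 and 602 CPM in HI, and 366 and 319 CPM in young cells. No old value reached down to a young one, and the difference was 1.07 (0.98 and 1.16). Of 15 other receptors, cofactors and catabolic genes, 10 passed and 0 met the rule. The highest of those was Rarb, a receptor gene known to be induced by retinoic acid, at 0.96, with 0.21 and 1.71 in the tables, and the lowest Ncoa2, a receptor coactivator, at -0.43. Of 14 alcohol and formaldehyde clearance genes, 9 passed, and Aldh1a1 itself was the 1 that met the rule as higher (1.52% of all genes), with a median of -0.05 and Aldh9a1 lowest.

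In HI minus LO no gene of these lists met the size rule. The list medians ran from -0.21, for receptors and cofactors, to 0.08, for other aldehyde dehydrogenases. Highest in their lists were Aldh18a1, which acts in proline synthesis, at 0.46, and Dhrs4, a retinal reductase, at 0.47. So were Nr1h2, an oxysterol receptor, at 0.35, Aldh9a1 at 0.45, and Dhrs3, among genes induced by retinoic acid, at 0.11. Lowest in their lists were Bco2, a carotenoid-cleaving enzyme, at -2.09, Cyp26b1 at -0.81 and Rarb at -0.66. The same held for Aldh6a1 at -0.52 and Cbr1, a carbonyl reductase, at -0.50. None of these met the rule, and Bco2 had a read in 9.76% of HI and 13.8% of LO cells after thinning.

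The genes most like Aldh1a1 over the 8 sums were Gstm2 (Pearson's r 0.995), a glutathione transferase, Mt1 (0.993), a metallothionein, Plscr2 (0.993), a scramblase family gene, Wwtr1 (0.984), the transcriptional coactivator TAZ, and Nhsl2 (0.984), out of 10720 genes. The measure rests mainly on the gap between the 6 old and the 2 young sums. Gstm2 was at 75.8 CPM in old and 8.51 CPM in young cells, and Mt1 at 62.8 CPM in old and 2.27 CPM in young cells. Cyp26b1 ranked 1205 by the same measure (r = 0.60) and Aldh9a1 ranked 9423 (r = -0.51). Across the 533 cells, with group and table means taken out, the highest values among 10388 genes were only 0.24 to 0.26. They were for Hsp90ab1, Gm8822, Pnpla2, Siva1 and Pabpc1. These are weak correlations, and Aldh1a1 had an r of 0.26 with the log2 nuclear reads of the cell.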

How the data were processed

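Libraries of single HSCs followed a modified Smart-seq2 procedure, per the labels' protocols. Raw counts of reads for each gene and cell, as deposited, came in 2 tables. Tools named in the submitters' processing notes are featureCounts 2.0.0, Subread, STAR 2.7.3a and DESeq2, with the build mm10 and no roles; read assignment and strand were not given in the sources used here. Of all counts 23.6% lay in genes, 33.1% had no feature, 38.8% did not align, 4.03% were ambiguous and 0.433% were spike-ins; these other rows stayed out of totals. Of 46078 gene entries, 45143 matched GENCODE M21 names, and 37 mitochondrial genes were left out of totals.

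Cells with at least 50000 nuclear reads, 1000 genes and at most 20% mitochondrial reads were kept (30 left out, and 0 columns lacked a sample). Cells were sorted singly, and no doublets were called. Reads were summed per group and table into 8 sums (18580222 to 25382151 reads) and scaled to CPM with TMM factors (0.953 to 1.04, edgeR 4.0.16); DESeq2 1.42.0 gave alternative size factors. Differences were taken on log2(CPM + 1) within each table and averaged, old being the mean of LO, MID and HI, which understates changes of low genes. Shares used cells thinned to 100000 reads (501 cells, 32 too shallow) with Clopper-Pearson intervals, and levels used Poisson intervals, at 95%. The calculations were tested on simulated data.

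The genes, lists and size rule were chosen with earlier results of these data known. All 10 genes are named, and of each list the genes that met the size rule and the highest and lowest past the filter; for likeness, the 5 highest by each measure. A result that rests on an item withheld for evaluation is not reported here. Alternatives covered scaling, pseudocount, level filter, cell filters, each table alone and cell subsets.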

Additional observations from a re-analysis of the deposited data

Results flagged for a closer look

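Aldh1b1 moved opposite ways in the tables for old minus young, by -1.002 in the first and 1.30 in the second on the log2 scale. For Rxra this held in HI minus LO, with 0.92 in the first table and -0.60 in the second. The difference between tables was not tested in either case. Of all 10721 genes past the level filter, 163 (1.52%) had opposite signs of at least 0.58 in size in each table for old minus young, and 227 (2.12%) for HI minus LO. Both genes were carried by few cells: the 5 cells with most reads held 97.01% and 95.8% of young Aldh1b1 reads, and 62.8% to 79.2% of the Rxra reads of HI and LO cells.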

How the results depend on the processing

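No paired analysis was possible because the replicate numbers name single cells and no test was run; every difference was already taken within each table. Over 15 alternatives the Aldh1a1 old minus young difference ran from 2.06 to 2.63. It moved by more than the spread between tables in 1 case, without cells with 3 or more multipotent progenitor markers (2.06, chosen after seeing the data). The count of the genes that met the size rule for old against young was 2 in the first table alone (Aldh1a1 and Cyp26b1). Of 253 differences of single genes, 219 stayed within the spread between tables and 34 moved, and no gene that met the rule changed sign. Each table taken alone is among these alternatives and stays within that spread by construction. Where the tables lie far apart, as for Aldh1b1 in old minus young, a difference could hardly move. The count of 219 is therefore no measure of robustness. Of 40 shares recomputed at 50000 reads, 2 moved. Over all genes, HI minus LO gave 178 higher genes, but 13 without cycling cells, 25 without cells with other-type markers and 37 without cells with progenitor markers; old minus young gave 163 (1.52%), and 0.989% of genes at a pseudocount of 10 CPM, 67 genes under a filter of 50 CPM, and 271 and 291 in the first and the second table alone. The planned removal of cells with 3 or more markers of any other type, with the megakaryocyte list, was not run, since that list is read in nearly all HSCs and almost no cells were left; it was run without that list, a choice made after seeing the data. Depth limits the low genes most: Rara, Rxra, Aldh1b1 and Aldh1a7 rest on few cells.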
